A study of Mus musculus with 2 samples.

Results

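The major urinary protein (Mup) genes were examined in liver RNA as a group of 8 named members, Mup1, Mup2, Mup3, Mup7, Mup11, Mup19, Mup20 and Mup21, taken by gene symbol. The table used here has 15526 gene rows, and 7 of the 8 members have a row. Mup11 has none and was not analysed here. A further 10 rows carry a Mup symbol and serve below as the nearest relatives.

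Each of the 2 groups, AAOT and control, is a single library, for which liver RNA of 3 female NOG-TKm30 mice of 22 weeks was mixed. The AAOT group was given AAOT (acetoaceto-o-toluidide, a compound made from o-toluidine) at 0.3% for 4 weeks, and the control group received 0% over the same time. The labels do not say by which route. NOG mice are severely immunodeficient. Mice of both groups carry the TKm30 transgene, a mutated viral thymidine kinase (HSVtk) driven by the enhancer and promoter of the mouse transthyretin gene, which is active in hepatocytes. Some labels name C57BL and others NOG as the background. Because each library is a pool, no spread between animals can be estimated, no p-value was computed, and a fold describes these pools only. The interval beside each fold is an exact 95% interval for the ratio of 2 read counts, which covers counting error only. The libraries held 16528533 reads in the AAOT pool and 18801241 reads in the control pool. Values are CPM, read counts as scaled by the authors. The columns total 987690 CPM in the AAOT pool and 1012460 CPM in the control pool, so the scaling was not to library size alone.

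Mup proteins are small lipocalins, barrel-shaped carriers that hepatocytes secrete and the kidney passes into urine, where they bind volatile pheromones and release them slowly. Liver Mup transcription is known to be higher in male than in female mice and to depend on pulses of growth hormone acting through STAT5, with further input from glucocorticoid and thyroid hormone. The group was selected on the AAOT to control ratio of these same pools, seen earlier, so the ratios below are a description.

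The Mup genes form a single cluster. RefSeq places 22 Mup genes between 59956804 and 62150841 on chromosome 4 (GRCm38.p6), a stretch of 2194 kb, and 17 of the 22 symbols have a row. Mup7 (60066469 to 60070475), Mup2 (60135913 to 60139977) and Mup1 (60498012 to 60501960) lie towards its start. Mup19 (61778324 to 61782355), Mup20 (62011337 to 62054143), Mup3 (62083476 to 62087317) and Mup21 (62147832 to 62150841) lie towards its end. The symbols have been reassigned over time: for 5 of the 8 members RefSeq lists the same symbol as an older name of a different Mup gene. No annotation is named for the table, and the positions are those of the present RefSeq symbols.

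By coding sequence the members fall into a near-identical set and 3 outlying genes. In GENCODE M21 the principal coding sequences of Mup1, Mup2, Mup7, Mup11 and Mup19 are 98.3% to 99.4% identical over their 10 pairs. Mup1 and Mup2 differ at 3 aligned positions. These 5 genes are 82.8% to 91.3% identical to Mup3, Mup20 and Mup21, and Mup3 and Mup21 are 94.7% identical to each other. Promoter stretches could be compared for 4 members, Mup19, Mup2, Mup3 and Mup21. The next 5 sequences are of genes that share a promoter layout and whose ratios between the pools are given below. They are RefSeq promoter stretches of GRCm38.p6, on the minus strand and read 5′ to 3′, running from a shared aaatcaatc to the TATA element, which is in capitals.
Mup19: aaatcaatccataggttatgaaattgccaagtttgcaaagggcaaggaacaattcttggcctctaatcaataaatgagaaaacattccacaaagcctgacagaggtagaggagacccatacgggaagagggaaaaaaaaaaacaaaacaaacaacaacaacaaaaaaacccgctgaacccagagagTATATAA
Mup2: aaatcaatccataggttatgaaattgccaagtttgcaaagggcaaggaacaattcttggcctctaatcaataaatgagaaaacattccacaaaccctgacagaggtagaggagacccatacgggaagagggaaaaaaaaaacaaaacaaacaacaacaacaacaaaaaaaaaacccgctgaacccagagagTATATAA
Mup10: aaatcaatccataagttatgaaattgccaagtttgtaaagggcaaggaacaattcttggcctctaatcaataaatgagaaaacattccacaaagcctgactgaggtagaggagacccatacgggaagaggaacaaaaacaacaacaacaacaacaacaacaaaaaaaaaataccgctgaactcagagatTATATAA
Mup3: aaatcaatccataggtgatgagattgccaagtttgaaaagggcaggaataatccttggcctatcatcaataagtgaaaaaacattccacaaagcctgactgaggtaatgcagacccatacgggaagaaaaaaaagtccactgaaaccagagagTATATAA
Mup21: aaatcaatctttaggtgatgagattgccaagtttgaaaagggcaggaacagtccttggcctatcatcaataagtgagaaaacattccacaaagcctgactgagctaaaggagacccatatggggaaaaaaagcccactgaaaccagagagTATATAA
They lie at chr4:61782249-61782441 for Mup19, chr4:60139877-60140074 for Mup2, chr4:60582179-60582374 for Mup10, chr4:62087322-62087481 for Mup3 and chr4:62150843-62150999 for Mup21. The RefSeq gene spans of Mup19, Mup2 and Mup10 end at 61782355, 60139977 and 60582276, inside these stretches. For those genes the TATA element therefore lies within the gene span, and the promoter entry takes a start farther inside it. Mup10 is not a member and is shown as the most abundant Mup row. The stretches differ in the length of an A-rich tract before the TATA element, which is counted from the second base after gacccata and ends 2 bases before the ctgaa that follows. This tract is 49 bases long in Mup19, 54 in Mup2 and 52 in Mup10, but 17 in Mup3 and 14 in Mup21. Over the whole stretch, Mup19 is 96.0% identical to Mup2 and 74.6% identical to Mup3. It has no differing position from the corresponding stretch of Mup15, one of the other Mup rows.

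Promoter entries of 300 bases, of which 50 lie after the annotated start, were available for 6 of the 8 members, Mup2, Mup3, Mup7, Mup11, Mup19 and Mup21. The letters TTCNNNGAA, the pattern bound by STAT5, were found on either strand in 0 of the 6 and in 8.30% of all 32851 entries. The glucocorticoid receptor pattern ACANNNTGT was likewise found in 0 of the 6 and in 6.85% of all. A loose C/EBP pattern, TTNNGNAA, was found in 6 of 6 and in 40.7% of all entries. The letters TATATAA, chosen after these sequences were seen, were found in 5 of the 6 and in 3.24% of all. The textbook TATAAA was found in 0 of the 6 and in 13.6% of all. The 6 entries are not independent of one another. In the stretches compared above, Mup19 and Mup2 are 96.0% identical, and Mup3 and Mup21 are 91.9% identical. The counts of the 6 therefore only describe these sequences. In the members no match overlapped a match of a different motif. The entry of Mup7 starts farther upstream than those of its relatives and ends before the corresponding TATA position.

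The likeness of the genes limits what a single row can show. Of the 50-base stretches of the longest transcript, 0% are unique to Mup2 or to Mup19, 5.24% to Mup1 and 9.76% to Mup7. Unique stretches make up 49.5% of Mup20, 80.7% of Mup21 and 84.4% of Mup3. The submitters' notes name RSEM among their tools but do not say how reads shared between copies were divided. The read counts and intervals given below depend on that division for Mup2 and Mup19, which have no unique stretch. They also depend on it for most of the length of Mup1 and Mup7. Among the other Mup rows, unique stretches make up 7.44% of Mup9, 13.8% of Mup10 and 0% of Mup15. Stretches found only under Mup symbols, pseudogenes included, made up 99.5% of Mup20 and 100% of each of the other members. A sum over the whole family is therefore less exposed to this sharing than any near-identical row. The sum of the 7 members remains exposed, because near-identical members also share stretches with non-members. Mup1 has 81.4% of its stretches in common with Mup12, and Mup2 has 81.7% in common with Mup14.

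Summed over the 7 members, Mup reads were lower in the AAOT pool. The sum was 2684 CPM in the AAOT pool, against 6019 CPM in the control pool, which is 2.24-fold lower (2.22 to 2.27). The 7 rows took 0.272% of all reads in the AAOT pool and 0.595% in the control pool. Most of the difference came from Mup1, at 2746 CPM of a total of 3335 CPM. Without Mup1 the sum was 1401 CPM in the AAOT pool and 1990 CPM in the control pool, 1.42-fold lower (1.40 to 1.44). Fewer hepatocytes in a sample and less RNA per hepatocyte cannot be told apart in such bulk RNA.

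Mup1, the classical liver urinary protein gene, had 1284 CPM (21481 reads) in the AAOT pool and 4029 CPM (74824 reads) in the control pool. It was 3.14-fold lower (3.09 to 3.19), the lowest log2 ratio, -1.65, among the 111 genes with a mean of at least 1000 CPM. Mup2, whose coding sequence is nearly that of Mup1, had 463 CPM in the AAOT pool and 767 CPM in the control pool, 1.66-fold lower (1.61 to 1.70). Mup7 was weakly expressed, at 4.72 CPM (79 reads) in the AAOT pool and 11.3 CPM (210 reads) in the control pool, 2.40-fold lower (1.84 to 3.14). The rows of Mup1, Mup2 and Mup7 were thus lower, by unequal amounts. Few or none of their stretches are unique, and the intervals do not cover how shared reads were divided.

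Mup19 stood apart from the other near-identical members with a row. It had 37.7 CPM (631 reads) in the AAOT pool and 5.49 CPM (102 reads) in the control pool, 6.86-fold higher (5.56 to 8.55). In absolute terms this difference, 32.2 CPM, is small beside the 2746 CPM by which Mup1 was lower. Taken as a set, Mup1, Mup2, Mup7 and Mup19 summed to 1789 CPM in the AAOT pool and 4814 CPM in the control pool, 2.69-fold lower (2.66 to 2.73). No 50-base stretch of Mup19 is its own, and its most-sharing gene is Mup16, with 80.5% of stretches in common, which has no row.

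The outlying members gave ratios nearer to 1 than Mup1 did. Mup3, which has mostly unique stretches, had 842 CPM (14098 reads) in the AAOT pool and 1147 CPM (21307 reads) in the control pool, 1.36-fold lower (1.33 to 1.39). Mup21 had 25.5 CPM (426 reads) in the AAOT pool and 40.1 CPM (745 reads) in the control pool, 1.58-fold lower (1.40 to 1.78). Mup20 encodes darcin, the male urinary protein that attracts females. It went the other way, with 27.1 CPM (454 reads) in the AAOT pool and 18.1 CPM (337 reads) in the control pool, 1.49-fold higher (1.30 to 1.73). Mup3, Mup20 and Mup21 together had 895 CPM in the AAOT pool and 1206 CPM in the control pool, 1.35-fold lower (1.32 to 1.38).

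**Figure D1:**
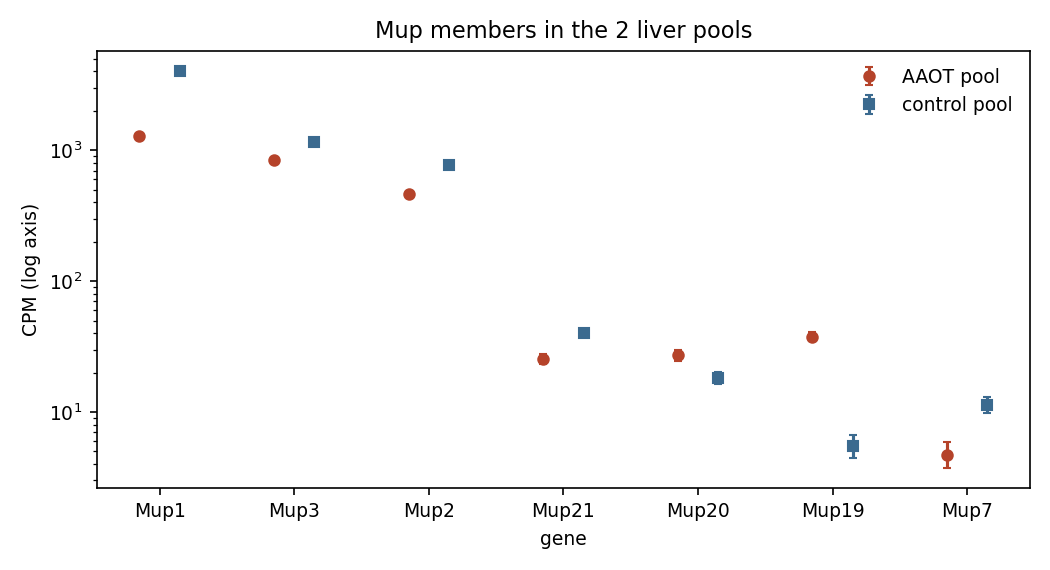
CPM of the 7 members (log axis) in the AAOT pool (circles) and the control pool (squares), with exact 95% Poisson intervals for counting error. Mup1, Mup3, Mup2, Mup21 and Mup7 sit lower in the AAOT pool, while Mup20 and Mup19 sit higher.

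The order of levels was compared per kb of the longest GENCODE transcript. In the AAOT pool Mup1 was highest, at 1385 CPM per kb, followed by Mup3 at 856 and Mup2 at 499.7. Mup19, Mup21, Mup20 and Mup7 followed at 40.7, 37.6, 29.2 and 4.57 CPM per kb, and the counting intervals of Mup19 (37.6 to 44.0) and Mup21 (34.1 to 41.3) overlap. In the control pool the order was Mup1 at 4347, Mup3 at 1166, Mup2 at 828, Mup21 at 59.3, Mup20 at 19.6, Mup7 at 10.9 and Mup19 at 5.93 CPM per kb. There no neighbouring intervals overlap. Mup19 thus lay above Mup20 and Mup7 in the AAOT pool and was the lowest of the 7 in the control pool.

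The make-up of the members' reads shifted with these ratios. Mup1 took 47.8% of the reads of the 7 members in the AAOT pool (exact 95% binomial interval 47.4% to 48.3%) and 66.9% in the control pool (66.7% to 67.2%). Mup3 took 31.4% in the AAOT pool (31.0% to 31.8%) and 19.1% in the control pool (18.8% to 19.3%). The share of Mup2 was 17.3% in the AAOT pool and 12.8% in the control pool. Mup19, Mup20 and Mup21 took 1.40%, 1.01% and 0.948% in the AAOT pool, against 0.0913%, 0.301% and 0.667% in the control pool.

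**Figure D2:**
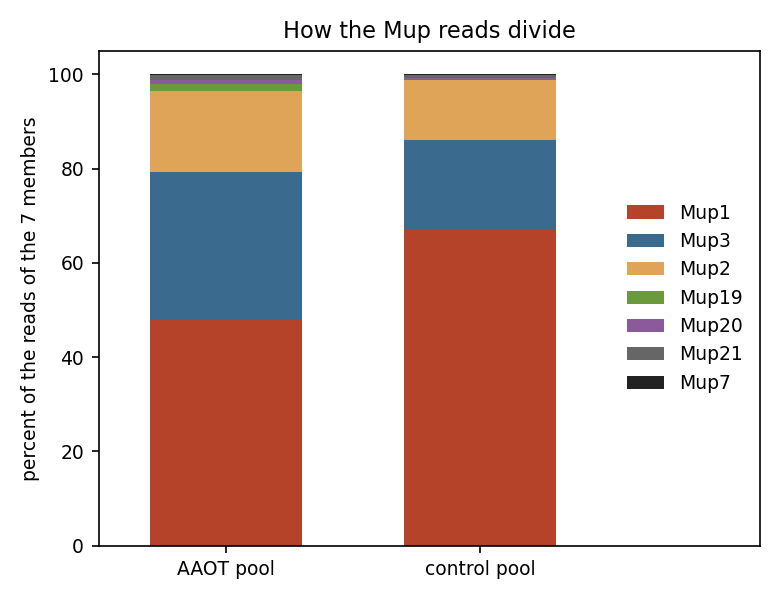
Percent of the reads of the 7 members taken by each gene, as stacked bars for the AAOT pool and the control pool. Mup1 fills 47.8% of the AAOT bar and 66.9% of the control bar, and Mup3 fills 31.4% of the AAOT bar and 19.1% of the control bar.

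The other 10 Mup rows were also lower in sum. They had 4907 CPM in the AAOT pool and 9540 CPM in the control pool, 1.94-fold lower (1.93 to 1.96). Mup10, the most abundant Mup row, had 3248 CPM in the AAOT pool and 6375 CPM in the control pool, 1.96-fold lower (1.94 to 1.98). Mup9 was 2.04-fold lower (2.01 to 2.07), at 1352 CPM in the AAOT pool and 2755 CPM in the control pool. Mup15 was 1.97-fold lower (1.78 to 2.19), at 31.7 CPM in the AAOT pool and 62.4 CPM in the control pool. Its promoter stretch equals that of Mup19, which was higher in the AAOT pool. Neither Mup15 nor Mup19 has a unique stretch, so both ratios depend on how shared reads were divided. Nothing is therefore read from their opposite directions. Mup17 was 1.25-fold lower (1.20 to 1.29). Mup12, Mup13 and Mup14 had 15, 53 and 26 reads in the AAOT pool and 47, 130 and 39 reads in the control pool. Mup5 had 0 reads in the AAOT pool and 4 reads in the control pool, and Mup8 had 0 reads in the AAOT pool and 16 reads in the control pool. Mup6, by contrast, had 7 reads in the AAOT pool and 0 reads in the control pool. A count of 0 allows up to 0.179 CPM in the AAOT pool and 0.162 CPM in the control pool. Together the 17 Mup rows took 0.769% of reads in the AAOT pool and 1.54% in the control pool.

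**Figure D3:**
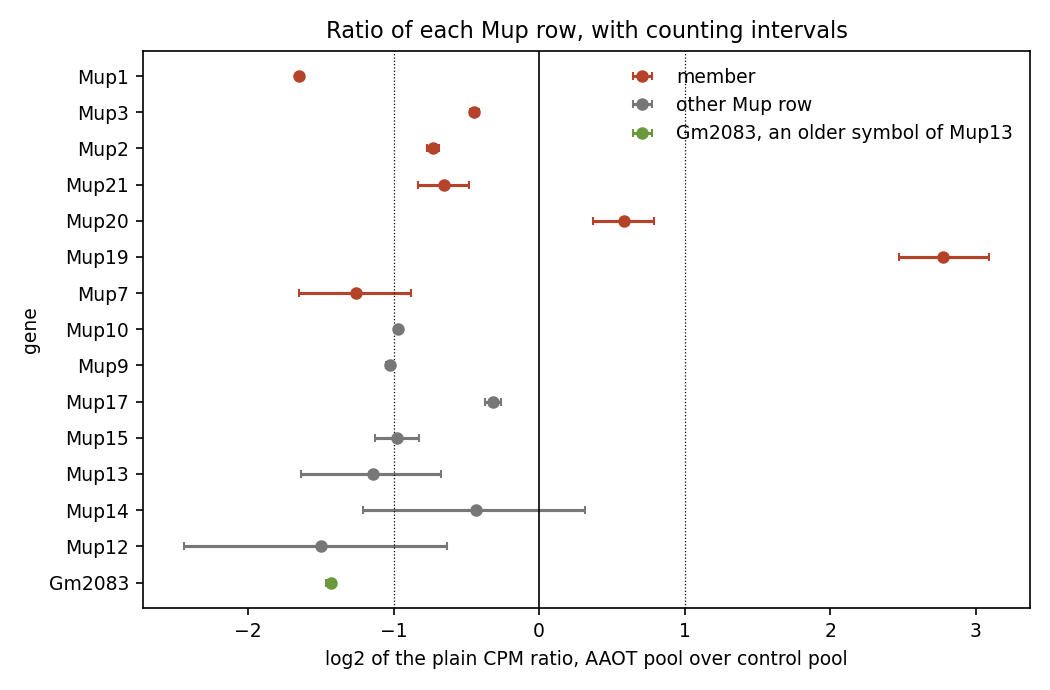
Log2 of the plain CPM ratio, AAOT pool over control pool, for each Mup row with reads in both pools, with exact 95% counting intervals and dotted lines at 2-fold. Most rows lie left of 0 and the abundant Mup10 and Mup9 lie near the lower dotted line, while Mup20 and Mup19 lie to the right.

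One more row belongs to the family under another name. Gm2083, found after the values were seen, is listed by RefSeq as an older symbol of Mup13, which also has a row of its own. It had 742 CPM (12409 reads) in the AAOT pool and 2003 CPM (37193 reads) in the control pool, 2.70-fold lower (2.65 to 2.76). With it the family summed to 8333 CPM in the AAOT pool and 17563 CPM in the control pool, 2.11-fold lower (2.09 to 2.12). Which copy the reads of this row came from cannot be told apart from the table.

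Set against all genes, a ratio past 2-fold was uncommon. Among the 7761 genes with a mean of at least 10 CPM, 0.425% were at least 2-fold lower and 0.773% at least 2-fold higher, by the ratio of CPM after adding 1 to each value. Of the members, 6 reached this level, and Mup7, at a mean of 8.01 CPM, did not. On this scale 1 of the 6, Mup1, was at least 2-fold lower and 1, Mup19, at least 2-fold higher. The median log2 ratio of the 6 was -0.54, and that of the 10 Mup rows at this level was -0.68, beside -0.02 over all 7761 genes. Among the 111 genes of at least 1000 CPM, 4.5% were at least 2-fold lower, namely Mup1, Gm2083, Mug1, Serpina3k and Mup9. Since the members were chosen with these ratios known, nothing is read from these counts.

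**Figure D4:**
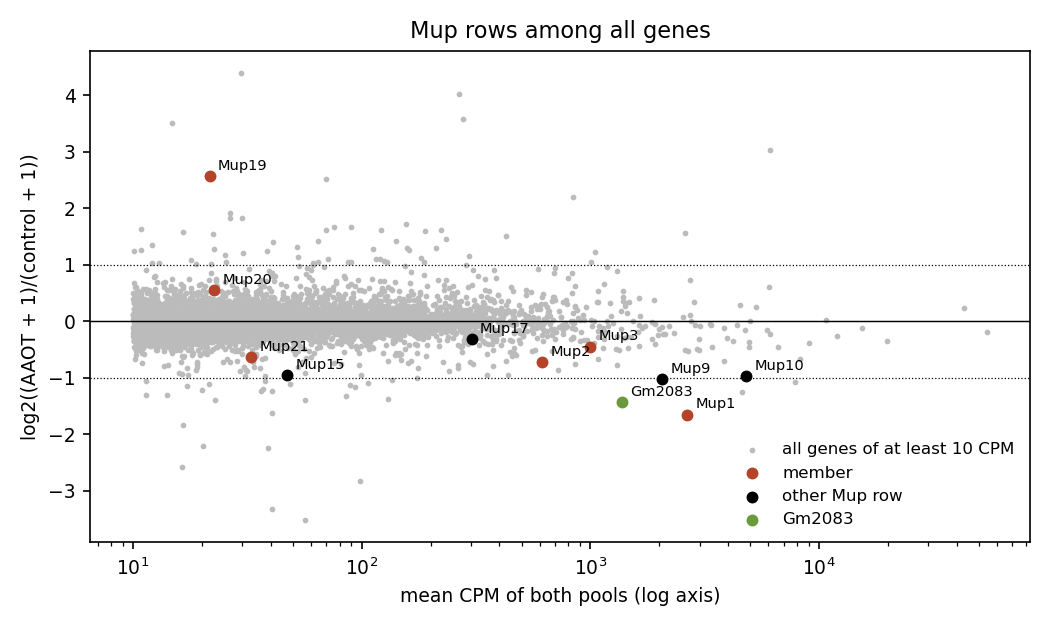
Log2 ratio, AAOT over control with 1 CPM added, against mean CPM (log axis) for the 7761 genes of at least 10 CPM, with the Mup rows and Gm2083 named and dotted lines at 2-fold. Mup1, Gm2083, Mup9 and Mup10 lie at the lower edge of the abundant genes, and Mup19 lies above the upper dotted line at low abundance.

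Outside the Mup symbols, 5 abundant genes were nearest to the members' summed log2 ratio of -1.16, by the difference of log2 ratios over the 2 libraries. Apart from Gm2083 they were all secreted plasma proteins. Mug1, an alpha-macroglobulin family protease inhibitor, had 2705 CPM in the AAOT pool and 6465 CPM in the control pool, a log2 ratio of -1.26. Serpina3k, a serine protease inhibitor, had 5043 CPM in the AAOT pool and 10583 CPM in the control pool, a log2 ratio of -1.07. Haptoglobin, Hp, and Apoa1 followed at -0.78 and -0.71. Of 44 secreted liver proteins, 43 had a log2 ratio below 0, beside 53.6% of the 7761 genes of at least 10 CPM, and the median was -0.28. The 2 that passed 2-fold downwards were the same Mug1 and Serpina3k, and 0 passed 2-fold upwards. At least 2-fold lower were 0.425% of the 7761 genes and 4.5% of the 111 genes of at least 1000 CPM. The other lipocalins were mostly lower by less than 2-fold: of 14 named, 9 have a row and 7 reached 10 CPM, all 7 below 0, with a median of -0.22. The other two, Orm3 and Ptgds, were below that level, with 149 and 12 reads in the AAOT pool and 115 and 13 reads in the control pool. Lcn2, an iron-siderophore carrier of the acute phase response, was the 1 lipocalin at least 2-fold lower, at 7.65 CPM in the AAOT pool and 20.4 CPM in the control pool. Rbp4, the plasma carrier of retinol and an abundant liver lipocalin, was 1.17-fold lower (1.15 to 1.18). Orm2 and Orm1, acute phase lipocalins, had log2 ratios of -0.37 and -0.24.

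Regulators of Mup transcription and genes of the growth hormone pathway differed by less than 2-fold. Of the 23 in this list, 21 reached 10 CPM, 0 were 2-fold lower and 0 were 2-fold higher, with 16 below 0 and a median log2 ratio of -0.10. The growth hormone receptor, Ghr, was 1.16-fold lower (1.13 to 1.19), at 520 CPM in the AAOT pool and 602 CPM in the control pool. Stat5b, the main hepatic STAT5 gene, was at 111 CPM in the AAOT pool and 117 CPM in the control pool, and its interval of 0.99 to 1.12-fold lower includes equality. Stat5a was 1.35-fold lower (1.18 to 1.56). Igf1, a growth hormone target, was at 839 CPM in the AAOT pool and 1178 CPM in the control pool, 1.41-fold lower (1.38 to 1.44), Socs2 was 1.35-fold lower (1.18 to 1.53) and Cish 1.53-fold lower (1.24 to 1.89). Igfals was 1.09-fold lower (1.04 to 1.15), and Jak2, the kinase bound to the receptor, was at a log2 ratio of -0.10.

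A pair of repressors with sex-biased liver expression went in opposite directions. Bcl6, a repressor that is higher in males, had 22.0 CPM in the AAOT pool and 39.3 CPM in the control pool, 1.79-fold lower (1.57 to 2.03). Cux2, a repressor that is higher in females, had 56.6 CPM in the AAOT pool and 36.6 CPM in the control pool, 1.55-fold higher (1.40 to 1.71). Onecut1 (HNF6) was 1.32-fold higher (1.12 to 1.56). The hepatocyte factors Hnf4a, Cebpa, Cebpb, Foxa1 and Foxa2 had log2 ratios of -0.03, -0.23, -0.07, -0.08 and -0.37. Among hormone receptors, the glucocorticoid receptor Nr3c1 was 1.14-fold lower (1.09 to 1.20), while Thra, Thrb and Esr1 had log2 ratios of -0.09, 0.11 and 0.09. Rsl1 and Rslcan18, zinc finger genes known from mouse genetics to hold down sex-limited liver genes, were below 10 CPM, with 29 and 96 reads in the AAOT pool and 20 and 74 reads in the control pool.

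Genes with a sex bias in mouse liver are given beside the Mup rows because the family is male-biased. Of 22 female-biased genes, 19 reached 10 CPM, 5 passed 2-fold upwards and 0 downwards, 18 lay above 0, and the median was 0.77. They were led by the bile acid and steroid sulfotransferase gene Sult2a1, at 120 CPM in the AAOT pool and 20.03 CPM in the control pool, and by its relative Sult2a2, Prom1 and the steroid hydroxylase gene Cyp2a4, at log2 ratios of 1.61, 1.58 and 1.51. Of 24 male-biased genes other than Mup genes, 22 have a row and 15 reached 10 CPM, with 0 past 2-fold either way, 9 below 0 and a median of -0.23. Egfr, Rarres1 and the complement gene C8a had log2 ratios of -0.96, -0.95 and -0.77, while Gstp1, a glutathione transferase, was at 0.91. Over all 7761 genes, 53.6% had a log2 ratio below 0, 0.773% were at least 2-fold higher and 0.425% at least 2-fold lower.

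**Figure D5:**
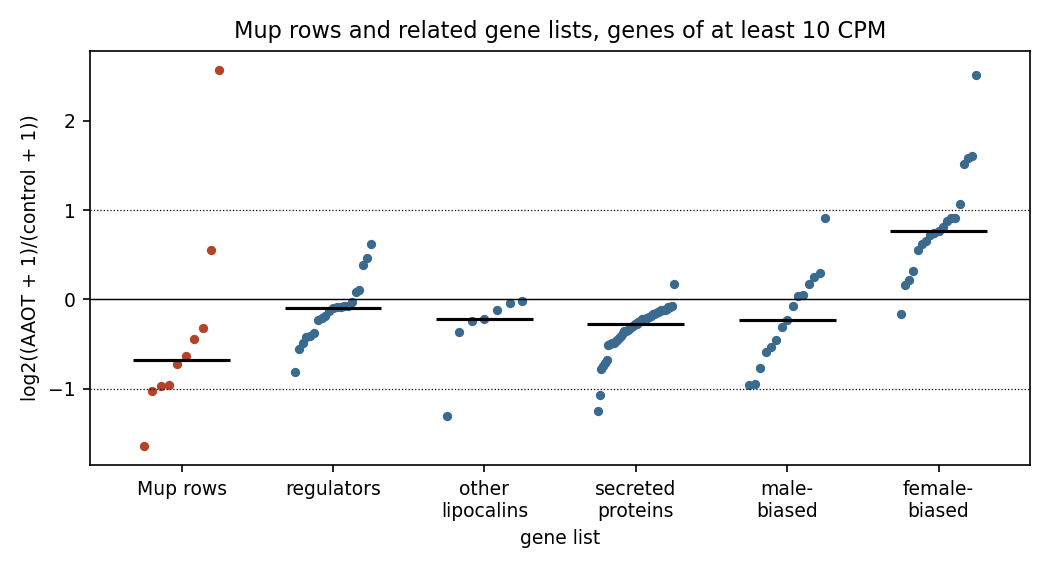
Log2 ratio, AAOT over control with 1 CPM added, of genes of at least 10 CPM in each list, 1 point per gene in order of ratio, with black bars at the medians and dotted lines at 2-fold. The median of the 10 Mup rows is -0.68, below those of the regulators, other lipocalins, secreted proteins and male-biased genes, and the female-biased genes have a median of 0.77.

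The tissue label was checked against cell type markers. All 6 hepatocyte markers were abundant and summed to 68329 CPM in the AAOT pool and 78331 CPM in the control pool, with log2 ratios of -0.71 to 0.26. Markers of other liver cells summed to far less. The 6 Kupffer cell genes summed to 268 CPM and the 5 sinusoidal endothelial genes to 319 CPM in the AAOT pool, against 253 CPM and 315 CPM in the control pool. The 5 stellate cell genes summed to 412 CPM in the AAOT pool and 467 CPM in the control pool. The 5 cholangiocyte genes summed to 35.3 CPM and the 5 erythroid genes to 351 CPM in the AAOT pool, against 44.8 CPM and 321 CPM in the control pool. Within the erythroid list Hbb-bs had 102 reads in the AAOT pool and 0 reads in the control pool, and the other 4 had reads in both. The 4 neutrophil markers summed to 1.02 CPM in the AAOT pool and 0.754 CPM in the control pool. Of 3 pancreatic acinar and 3 adipocyte markers, 1 each has a row: Cela1 with 103 reads and Cidec with 24 reads in the AAOT pool, against 219 reads and 28 reads in the control pool. The part of these differences in the Mup ratios was not tested.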

How the data were processed

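RNA from the livers of 3 mice was mixed per group and sequenced as 1 library per group. Per the labels' protocols, strand-specific libraries were built from 200 ng RNA after removal of rRNA. CPM values are as deposited by the authors, in 1 table. Tools named in the submitters' processing notes are edgeR, RSEM, Bowtie2 and Trimmomatic 0.38, with mm10 as the build and no step stated for each. Whole reads were recovered from the deposited CPM: 100% of values in each column were whole multiples of 1 step, within a relative tolerance of 1e-06. A count model was not run, because 1 library per group leaves no spread to estimate.

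The log2 ratio was log2((AAOT + 1)/(control + 1)), which understates the change of low genes, and folds in the text are plain CPM ratios. Counts of genes used a mean of at least 10 CPM and 2-fold. Intervals are exact (Clopper-Pearson for ratios and shares, Poisson for single values) at 95%, treat reads as independent molecules and do not cover the division of reads between copies. An unseen gene was given an upper limit of 3 reads. Levels per kb use the longest GENCODE M21 transcript. Likeness was judged by global alignment of principal coding sequences and of promoter stretches, and unique stretches of 50 bases were searched in all GENCODE M21 transcripts. Promoters and positions are from RefSeq on GRCm38.p6, the assembly that mm10 names. The motif TATATAA and the boundaries of the printed stretches were chosen after the sequences were seen.

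The members and lists were chosen with earlier results of these data known. The text names the members, all other Mup rows, the regulators, up to 4 genes of each other list farthest from 0 and the 5 genes of at least 1000 CPM nearest to the members' summed ratio. One regulator is counted in its list but not reported here by name. Orm3, Ptgds and single marker genes were named after their values were seen. The steps were tested on simulated reads with 200 changed genes. Alternatives were 5 other scalings, added constants, expression floors, fold sizes and other sums. Tools were Biopython 1.88, matplotlib 3.10.9, scipy 1.17.1, pandas 2.3.3 and numpy 2.4.6 under Python 3.11.15.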

Additional observations from a re-analysis of the deposited data

How the results depend on the processing

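The summed ratio of the members, AAOT over control, was 0.446 and stayed below 1 under every scaling and every sum tried. It was 0.457 with columns set to the same total, 0.451 with the median ratio, 0.461 with totals without Rn45s and 0.454 with totals without Mup rows. It was 0.488 over every Mup row, 0.704 without Mup1 (the most abundant member), 0.372 without Mup3, Mup20 and Mup21, and 0.868 as the unweighted mean of the members' log2 ratios. In alternatives added after seeing the data, it was 0.474 over every Mup row and Gm2083, and 0.440 without Mup19. The number of members at least 2-fold lower, 1 as reported, was 2 with a floor of 1 CPM and 2 with no floor, since Mup7 then enters. It was 3 at 1.5-fold and 0 at 4-fold, and with a floor of 50 CPM, 0 members were higher. Over all 7761 genes of at least 10 CPM, 33 (0.425%) were lower and 60 (0.773%) higher as reported. Of the same 7761 genes, 108 were lower and 161 higher at 1.5-fold, and 6 and 8 at 4-fold. Without any floor 60 and 94 of 15526 genes were lower and higher. At a floor of 50 CPM there were 15 lower and 37 higher genes, and at a floor of 1 CPM 55 lower. The numbers of genes reaching 50 and 1 CPM are not given here, so the members' counts at those floors cannot be set against a share. No member's log2 ratio and no list median changed sign under the alternatives run. The log2 ratio of Mup19 lay between 2.03 and 2.76 and that of Mup7 between -1.24 and -0.75, depending on the added constant. No paired analysis was possible because each group has 1 library.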

Other observations

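Genes that border the Mup cluster differed by less than 2-fold between the pools. The 3 nearest genes of at least 10 CPM before it on chromosome 4, Ptbp3, Hsdl2 and Snx30, had AAOT to control ratios of 1.03 (0.987 to 1.08), 0.779 (0.73 to 0.831) and 1.11 (0.964 to 1.28). The 3 nearest after it, Slc31a2, Fkbp15 and the copper transporter gene Slc31a1, had ratios of 1.03 (0.829 to 1.27), 0.91 (0.823 to 1.01) and 0.974 (0.932 to 1.02). Only the interval of Hsdl2 excludes equality among these 6. Among rows with a present RefSeq symbol, no other gene of at least 10 CPM lies inside the cluster. Rows under an older symbol, such as Gm2083, could not be placed this way. By loss of CPM over all genes, Mup10 ranked 6 and Mup1 ranked 7, at 3127 CPM and 2746 CPM less in the AAOT pool than in the control pool, after Alb, Serpina3k, Trf, Ahsg and Mug1.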
